A study of Mus musculus with 34 samples.

Results

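The 10 genes described here encode writers, readers and partners of heterochromatin: the histone methyltransferases Setdb1, Suv39h2, Ehmt1 and Ehmt2, the corepressor Trim28, the heterochromatin protein 1 family members Cbx1, Cbx3 and Cbx5, the histone chaperone adaptor Daxx, and Uhrf1. They were chosen by name out of 21938 protein-coding genes of the GENCODE M21 annotation, and each was studied over its GRCm38 gene body extended by 5 kb on both sides. Of the 248336 regions listed in 3 of the 4 count tables, 76 overlapped these windows. The H3K27ac table of the separate lines uses another list, in which 42 of 96988 regions overlapped. Window values given below sum the whole counts of all overlapping regions, including parts that reach past the window. Member regions of that list were wider (median 2457 against 739 bp), so the lists cover different stretches. At Cbx1 the regions cover 49202 bp in that list and 9388 bp in the other. None of the 10 genes lies on chromosome 13 (0 of 10).

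H3K9me3 and H3K27ac were measured by chromatin immunoprecipitation and sequencing in mouse embryonic stem cells cultured with serum, LIF, PD0325901 and CHIR99021. One set compared 3 lines of C57BL/6J (B6) with 3 lines of DBA/2J (D2) for each mark, all unmodified inbred genotypes. The other set repeated libraries of 1 line for each of 4 genotypes, which were B6, D2 and the reciprocal congenic lines B6-13D2, labelled B6.D2-(rs30079041-rs51756099)/Bakr, and D2-13B6, labelled D2.B6-(rs29224292-rs13469455)/Bakr. In B6-13D2 a D2 segment of chromosome 13 sits on the B6 background, and D2-13B6 is the converse. The series text gives another end marker for the D2-13B6 segment than the sample labels do. The repeats are technical, so tests among them compare single lines and their p-values measure the spread between libraries, while the B6 and D2 lines used for them also occur as replicate 3 of B6 and replicate 2 of D2 among the separate lines. For H3K9me3 there were 3 B6, 2 B6-13D2, 3 D2-13B6 and 2 D2 repeats. For H3K27ac there were 3 repeats per genotype, of which a pair in each genotype differed by less than the sampling noise, was summed, and was counted as 1 sample (n = 2 per genotype). Different H3K27ac antibodies were used in the separate lines and in the repeats, so levels were compared only within a set.

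H3K9me3 is the mark of constitutive and transposon heterochromatin, and H3K27ac marks active promoters and enhancers. In embryonic stem cells, KRAB zinc finger proteins bound to transposons recruit Trim28, which brings Setdb1 to deposit H3K9me3, while Suv39h2 writes the mark at pericentromeric repeats and the Ehmt1 and Ehmt2 pair writes mainly H3K9me2. The products of Cbx1, Cbx3 and Cbx5 bind methylated H3K9, Daxx loads histone H3.3 together with Atrx at repeats, and Uhrf1 reads H3K9 methylation and hemimethylated DNA and recruits Dnmt1. The marks were measured at the genes themselves, so the values below describe the chromatin of the loci and not the amount or activity of the proteins.

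An H3K27ac library held 15444270 to 18272793 counted reads if made from the separate lines and 8735674 to 11543469 if a repeat, and an H3K9me3 library 1487862 to 2559262 and 1538145 to 2185977. Levels are given in CPM, reads scaled to a common library size (TMM), and counting error is smallest in the H3K27ac libraries of the separate lines. In each mark, replicate 1 of D2-13B6 differed from its other 2 repeats more than those did from each other. Summed H3K27ac at the promoter regions of 6 embryonic stem cell markers was 1020 to 1140 CPM in the separate lines. In the repeats this sum was 482 to 535 CPM in B6, 583 to 625 in B6-13D2, 633 to 663 in D2-13B6 and 602 to 661 in D2. Esrrb, one of these 6, added almost nothing, with no region at its start in the separate lines and at most 0.508 CPM in the repeats. The sum over 4 fibroblast markers was 2.38 to 3.92 CPM in the separate lines, with no region at the starts of Col1a1 and Col1a2, and in the repeats it was 7.39 to 9.43 CPM in B6 and 21.9 to 27.5 CPM in D2. The sum over 3 trophoblast markers was 8.63 to 10.2 CPM in B6, 11.2 to 15.6 in B6-13D2, 21.5 to 22.7 in D2-13B6 and 16.4 to 18.2 in D2 among the repeats, higher in both D2-background lines, and 32.9 to 39.3 CPM in B6 and 39.1 to 41 CPM in D2 of the separate lines. Elf5, one of these 3, had no region at its start in the separate lines. Of 3 primitive endoderm markers, Gata4 and Sox17 had no region at their starts and Gata6 held 3.54 to 5.52 CPM in the B6-background lines, 5.83 to 6.81 in the D2-background lines and 5.47 to 6.04 in the separate lines. The stem cell, fibroblast and trophoblast sums of the repeats were thus lowest in the B6 line, and the part of cell composition in the differences below was not tested. In such bulk samples fewer cells with the mark and less of the mark per cell cannot be told apart.

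H3K27ac over the gene windows differed between the separate B6 and D2 lines at 7 of the 10 genes (edgeR quasi-likelihood test, adjusted p under 0.05 after Benjamini-Hochberg adjustment over all genes). It was higher in D2 at Suv39h2, Ehmt1, Ehmt2, Trim28, Cbx3 and Uhrf1 and lower at Daxx. Among all 17177 tested genes 60.4% were called, 7028 of these 10370 calls being higher in D2, and the median log2 fold change was 0.17 for the members and 0.12 for all genes. In the repeats, 6 of the 10 windows were called between the D2 and B6 lines, all higher in D2, where 49.6% of 19218 tested genes were called (7099 of 9524 higher in D2) and the medians were 0.37 and 0.19. By single region, 19 of 42 were called in the separate lines (16 higher in D2, 3 lower) against 49.3% of all tested regions, and 26 of 75 tested regions in the repeats (19 higher, 7 lower) against 28.1%. The shares of members called were therefore near those of all genes and regions, and what follows describes which genes and which regions moved. With library totals in place of TMM scaling, the median of all H3K27ac regions in the parental repeats moved from -0.05 to -0.20, and 28 member regions were called, 16 higher and 12 lower. Called windows then numbered 6, of which 5 were higher and 1 lower.

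**Figure D1:**
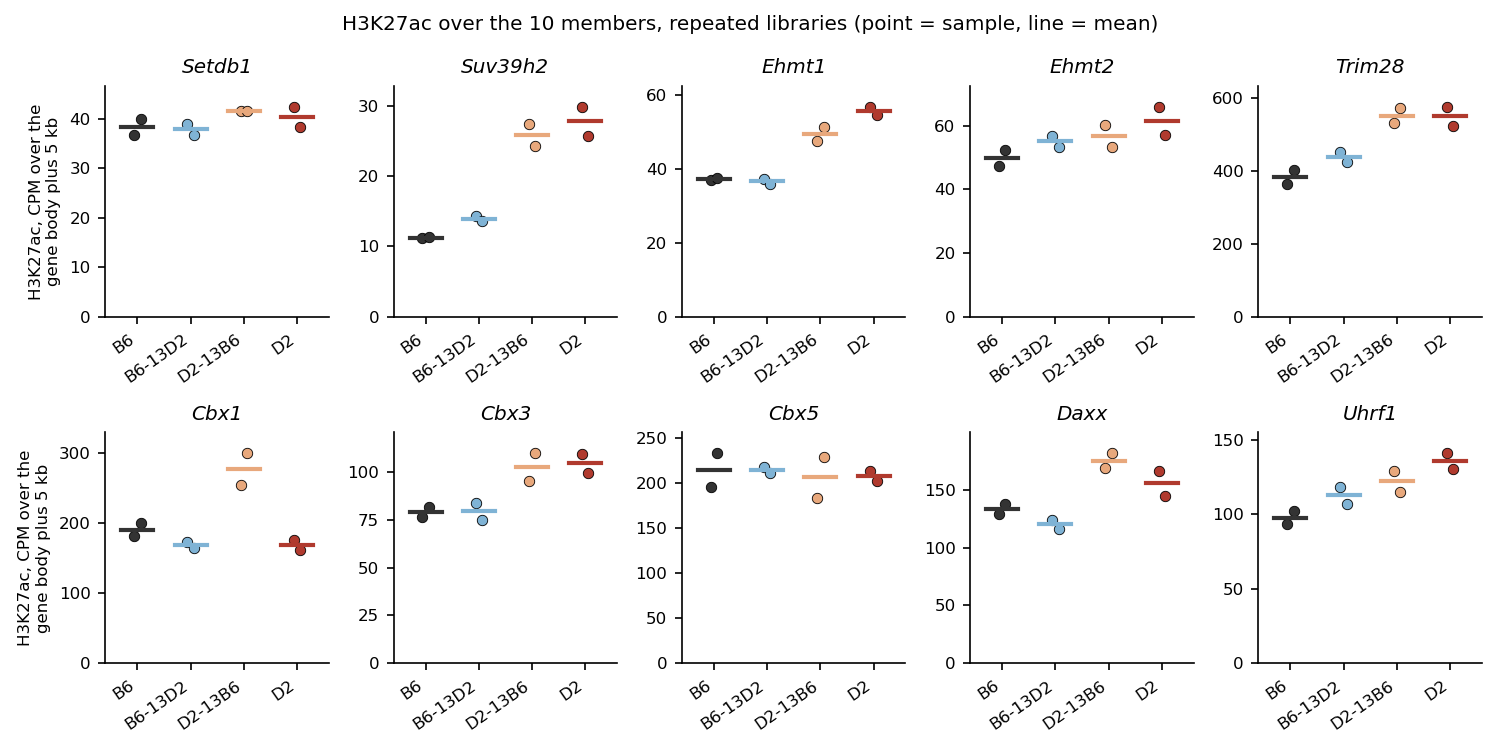
Summed H3K27ac in CPM of the regions overlapping the gene body plus 5 kb of each of the 10 genes (y axis, separate scale per gene) in the 4 lines of the repeats (x axis), with 1 point per sample (n = 2 per line) and a bar at the mean. Suv39h2, Ehmt1 and Trim28 sit higher in both lines with a D2 background than in both with a B6 background, and Cbx1 is highest in D2-13B6.

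**Figure D2:**
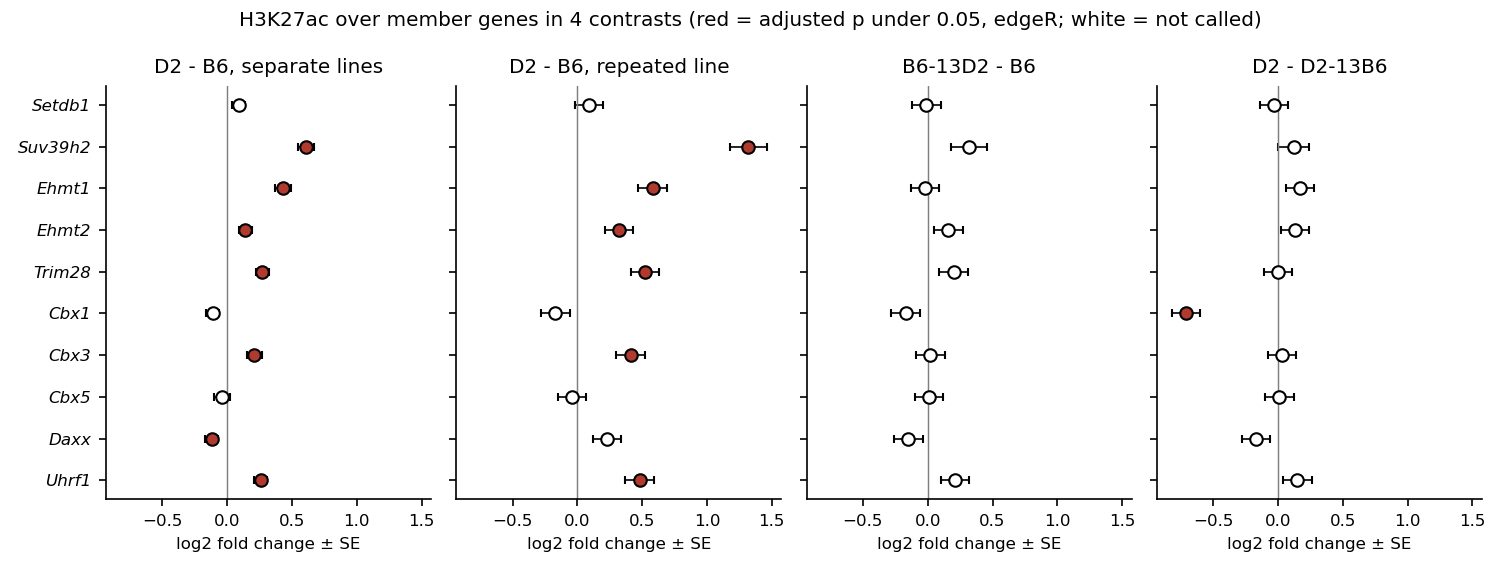
Log2 fold change of summed H3K27ac (x axis, bars are standard errors) for the 10 genes (y axis) in 4 contrasts, with called genes in red and others in white. Suv39h2 has the largest difference between D2 and B6 in both sets (0.61 and 1.32), and Cbx1 is the called gene between D2 and D2-13B6 (-0.71).

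Suv39h2, one of the pair of Suv39 methyltransferases, had the largest H3K27ac difference of the 10 genes between D2 and B6. Its gene lies on chr2:3455815-3475031 on the minus strand. Summed H3K27ac was 24.2, 25.8 and 23.7 CPM in the 3 B6 lines and 37.4, 36.2 and 38.8 CPM in the 3 D2 lines. Every D2 line was above every B6 line, and the difference was 1.53-fold (log2 0.61 ± 0.06 SE, edgeR adjusted p = 3.57e-07). In the repeats the window held 11.1 and 11.3 CPM in B6, 14.3 and 13.7 in B6-13D2, 27.4 and 24.3 in D2-13B6, and 29.8 and 25.7 in D2. The D2 line was 2.5-fold above the B6 line (log2 1.32 ± 0.14 SE, edgeR adjusted p = 1.19e-12). The groups of the 2 B6-background lines did not overlap either, but B6-13D2 minus B6 was 0.32 ± 0.14 (adjusted p = 0.104) and D2 minus D2-13B6 was 0.12 ± 0.12 (adjusted p = 0.631, edgeR).

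In the repeats, the called rise at Suv39h2 lay in the promoter region, chr2:3474042-3476266, which overlaps the annotated start. There the H3K27ac level was 9.38 and 8.74 CPM in B6, 13.0 and 12.5 in B6-13D2, 25.2 and 22.4 in D2-13B6, and 27.7 and 23.4 in D2. D2 exceeded B6 by 1.50 ± 0.15 on the log2 scale (edgeR adjusted p = 1.1e-10), the only called region of the 3 in the window. B6-13D2 was above B6 by 0.49 ± 0.16 (edgeR adjusted p = 0.0363). That call was lost with edgeR without replicate 2 of B6 (0.45, adjusted p = 0.0561), replicate 3 of B6 (0.47, adjusted p = 0.201), replicate 2 of B6-13D2 (0.60, adjusted p = 0.0861) or replicate 3 of B6-13D2 (0.44, adjusted p = 0.0623). It was also lost with library totals (0.35, adjusted p = 0.0775), without the filter (0.50, adjusted p = 0.0703), both by edgeR, and with DESeq2 (0.56, adjusted p = 0.0564), so that it held under 12 of 19 alternative settings. In the separate lines the overlapping region chr2:3472751-3477278 held 17.9, 20.4 and 17.4 CPM in B6 and 29.3, 29.0 and 30.6 CPM in D2. It differed by 0.67 ± 0.08 (edgeR adjusted p = 2.11e-09) with no overlap between the strains.

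Ehmt1 encodes GLP, the partner of the G9a methyltransferase, and its window of 129687 bp plus flanks holds 20 of the 76 regions. Summed H3K27ac was 52.2, 50.6 and 56.0 CPM in the B6 lines and 68.8, 76.1 and 69.0 CPM in the D2 lines, without overlap. The difference was 0.43 ± 0.06 on the log2 scale (1.35-fold, edgeR adjusted p = 1.02e-05). Of the 7 regions in the list of the separate lines, 5 were called higher in D2 and 1 lower, and an intronic one at chr2:24913810-24916188 had the largest change of all called member regions there. It held 3.48, 3.46 and 4.43 CPM in B6 and 6.42, 9.48 and 7.84 CPM in D2 (1.07 ± 0.15, edgeR adjusted p = 4.02e-08). The promoter region chr2:24916203-24921117 of the same table rose from 21.5, 18.5 and 21.6 CPM in B6 to 31.5, 32.4 and 30.3 CPM in D2 (0.61 ± 0.08, edgeR adjusted p = 1.61e-08).

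Across the repeats the Ehmt1 window held 37.2 and 37.5 CPM in B6, 37.4 and 36.1 in B6-13D2, 47.7 and 51.6 in D2-13B6, and 56.9 and 54.8 in D2. D2 was 1.5-fold above B6 (log2 0.58 ± 0.11, edgeR adjusted p = 9.6e-06), and neither congenic line was called against the parental line of its background. At the promoter region chr2:24917841-24920233 the level was 12.4 and 14.0 CPM in B6, 14.6 and 12.9 in B6-13D2, 27.5 and 30.7 in D2-13B6, and 31.9 and 28.8 in D2. The lines with a D2 background were both higher than the lines with a B6 background, and D2 minus B6 was 1.22 ± 0.15 (edgeR adjusted p = 5.51e-09), while the congenic contrasts were 0.09 and 0.06. Of 19 tested regions in the window, D2 was called above B6 at 4 and below it at 1. An intronic region at chr2:24888681-24889338 behaved differently, with 2.76 and 1.90 CPM in B6, 1.68 and 1.75 in B6-13D2, 0.508 and 1.17 in D2-13B6, and 1.89 and 2.27 in D2. It rests on 5 and 21 reads in D2-13B6 and was called between D2 and D2-13B6 (1.13 ± 0.36, edgeR adjusted p = 0.0489), a call that held under 9 of 19 alternative settings. Without replicate 2 of D2 its adjusted p was 0.257, without replicate 1 of D2 it was 0.126, without replicate 1 of D2-13B6 it was 0.221 with a value of 0.76, and without replicate 3 of D2-13B6 it was 0.0711 (edgeR). It was also not called without replicate 2 of B6 (adjusted p = 0.0542), replicate 3 of B6 (adjusted p = 0.0705) or replicate 2 of B6-13D2 (adjusted p = 0.0648, edgeR), without the filter (0.0679), with each chromosome scaled by its own reads (0.0665) or with DESeq2 (0.361).

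The sequences before the starts of Suv39h2 and Ehmt1 are shown because H3K27ac at these starts had the largest promoter changes among the methyltransferase genes. They are the C57BL/6J reference (RefSeq, GRCm38.p6), minus strand, read 5′ to 3′ from 250 bases before the RefSeq start up to the base before the GENCODE start, which comes first, at chr2:3475032-3475236 and chr2:24919615-24919859. Capitals mark GGGCGG, the GC box, on either strand.
Suv39h2: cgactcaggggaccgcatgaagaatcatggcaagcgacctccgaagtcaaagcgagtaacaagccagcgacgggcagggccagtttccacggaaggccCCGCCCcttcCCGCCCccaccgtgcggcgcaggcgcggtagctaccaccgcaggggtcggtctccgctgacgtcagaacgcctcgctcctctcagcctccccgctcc
Ehmt1: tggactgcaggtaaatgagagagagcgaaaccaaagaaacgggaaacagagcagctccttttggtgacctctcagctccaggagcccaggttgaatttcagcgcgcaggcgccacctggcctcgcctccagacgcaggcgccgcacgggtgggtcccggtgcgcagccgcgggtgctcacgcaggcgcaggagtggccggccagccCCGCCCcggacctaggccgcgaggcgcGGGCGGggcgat
The Suv39h2 stretch of 205 bases holds 22 CpG dinucleotides and 2 GC boxes, and the Ehmt1 stretch of 245 bases holds 25 and 2. All 10 genes matched RefSeq promoters, 16 in all with alternative starts, and were searched in the 250 bases before each start. GGGCGG on either strand occurred in 15 of the 16, against 32.7% of 32851 promoters. TATAAA occurred in 0 of 16 against 12.4%, and CCAAT in 5 against 33.8%, both searched on both strands. The members' promoters held 7 to 36 CpG in these bases, where the median of all promoters was 6. These letters are the same in the reference for every sample and say nothing about which factor is bound.

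Ehmt2 encodes G9a, the main H3K9me2 methyltransferase, and its window showed a smaller difference. Summed H3K27ac was 84.1, 83.9 and 87.2 CPM in the B6 lines and 90.1, 93.7 and 96.6 CPM in the D2 lines. The groups did not overlap and the change was 0.14 ± 0.05 on the log2 scale (edgeR adjusted p = 0.0249). With edgeR the call was lost without replicate 1 (adjusted p = 0.0628) or 2 (0.0615) of B6 and without replicate 2 (0.0513) or 3 (0.0703) of D2, and with each chromosome scaled by its own reads it was 0.09 and not called (adjusted p = 0.126). In the repeats the window held 47.3 and 52.2 CPM in B6, 56.9 and 53.4 in B6-13D2, 60.2 and 53.3 in D2-13B6, and 65.9 and 56.9 in D2. D2 minus B6 was 0.32 ± 0.11 (edgeR adjusted p = 0.0128), not called without replicate 2 of B6-13D2 (0.31, adjusted p = 0.0644), with library totals (0.19, adjusted p = 0.0765) or with each chromosome scaled by its own reads (0.25, adjusted p = 0.0565). Its promoter region chr17:34897634-34900262, which also holds the start of C2, had 10.7 and 13.4 CPM in B6 and 19.4 and 16.0 CPM in D2 (0.60 ± 0.16, edgeR adjusted p = 0.00262). Of 7 regions in the window, 3 were called higher in D2 and 1 lower.

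Setdb1, the methyltransferase that Trim28 recruits, was not called over its window in any contrast. Summed H3K27ac was 88.4, 84.4 and 91.8 CPM in the B6 lines and 96.2, 96.6 and 88.7 CPM in the D2 lines, and the groups overlapped (0.09 ± 0.05, edgeR adjusted p = 0.154). In the repeats it was 36.8 and 40.0 CPM in B6, 38.9 and 36.7 in B6-13D2, 41.6 and 41.5 in D2-13B6, and 42.4 and 38.4 in D2 (D2 minus B6 0.09 ± 0.11, edgeR adjusted p = 0.538). One of its 7 regions differed, the promoter region chr3:95355899-95357512, with 13.1 and 12.2 CPM in B6, 12.5 and 12.1 in B6-13D2, 19.4 and 20.6 in D2-13B6, and 19.4 and 18.3 in D2. Both lines with a D2 background were above both with a B6 background there, and D2 minus B6 was 0.57 ± 0.15 (edgeR adjusted p = 0.00276). The wider promoter region of the separate lines, chr3:95354123-95358784, differed by 0.21 ± 0.09 (edgeR adjusted p = 0.0391). That call was lost with edgeR without replicate 1 (adjusted p = 0.073) or 3 (0.13) of B6 and without replicate 1 (0.0545) or 2 (0.122) of D2, with library totals (0.051), and with DESeq2 (0.0954).

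Trim28 encodes KAP1, the scaffold between KRAB zinc finger proteins and Setdb1, and H3K27ac was called higher in D2 at each of the regions tested in its window, 3 of 3 in the separate lines and 6 of 6 in the repeats. Part of these regions, and much of the summed level, lie at neighbouring genes, as given below. Summed H3K27ac was 300.3, 284 and 296 CPM in the B6 lines and 361, 340.4 and 362 CPM in the D2 lines. No value overlapped, and the difference was 1.21-fold (log2 0.27 ± 0.05, edgeR adjusted p = 0.000154). Its level in the repeats was 365 and 402 CPM in B6, 453 and 424 in B6-13D2, 531 and 572 in D2-13B6, and 576 and 525 in D2. The 2 lines with a D2 background overlapped each other, D2 was 1.44-fold above B6 (log2 0.52 ± 0.11, edgeR adjusted p = 6.33e-05), and B6-13D2 lay between (0.20 ± 0.11 against B6, adjusted p = 0.21).

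The annotated Trim28 gene body, chr7:12999114-13031035, begins upstream of the RefSeq start, and its window also holds the starts of the neighbours Slc27a5, Zbtb45 and Chmp2a. In the separate lines the summed regions reach past the window to chr7:13046831 and also hold the Ube2m start. In the repeats, the regions that end before chr7:13021951 lie upstream of the RefSeq start. The region with the highest H3K27ac of all members, 32.1 CPM per kb, was chr7:13008657-13017880 at the Zbtb45 start. It held 228 and 254 CPM in B6, 304 and 282 in B6-13D2, 311 and 356 in D2-13B6, and 332 and 300.5 in D2 (0.39, edgeR adjusted p = 0.0122). The whole Trim28 window held 365 and 402 CPM in B6. The region over the RefSeq start, chr7:13021951-13026864, named after its values were seen, held 55.0 and 63.3 CPM in B6, 67.7 and 62.4 in B6-13D2, 90.0 and 97.0 in D2-13B6, and 97.8 and 90.7 in D2. D2 exceeded B6 there by 0.68 ± 0.12 (edgeR adjusted p = 3.06e-05), and B6-13D2 overlapped B6. The bases before that start are shown with the GC box letters in capitals on either strand, from the plus strand at chr7:13023902-13024151 of GRCm38.p6 (RefSeq).
Trim28: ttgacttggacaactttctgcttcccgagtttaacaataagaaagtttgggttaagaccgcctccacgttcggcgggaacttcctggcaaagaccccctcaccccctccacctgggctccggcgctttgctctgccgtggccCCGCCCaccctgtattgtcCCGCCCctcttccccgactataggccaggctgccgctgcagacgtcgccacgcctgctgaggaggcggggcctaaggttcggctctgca
This stretch of 250 bases holds 17 CpG dinucleotides and 2 GC boxes.

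The largest H3K27ac change among all called member regions of the parental repeats was in an intron of the annotated Trim28 gene, at chr7:13003424-13003795. Its level was 1.55 and 1.12 CPM in B6, 1.16 and 1.29 in B6-13D2, 4.47 and 4.50 in D2-13B6, and 6.17 and 5.91 in D2. Both D2-background lines were above both B6-background lines, and D2 minus B6 was 2.10 ± 0.26 on the log2 scale (edgeR adjusted p = 1.28e-08), called under each of 19 alternative settings. Repeats cover 91.9% of this region in the reference (soft-masked bases), and how reads that match several places were counted is not given in the sources used here, so its level at this one position is uncertain. The central 300 bases, plus strand, chr7:13003460-13003759, are shown with CG in capitals.
Trim28 intron: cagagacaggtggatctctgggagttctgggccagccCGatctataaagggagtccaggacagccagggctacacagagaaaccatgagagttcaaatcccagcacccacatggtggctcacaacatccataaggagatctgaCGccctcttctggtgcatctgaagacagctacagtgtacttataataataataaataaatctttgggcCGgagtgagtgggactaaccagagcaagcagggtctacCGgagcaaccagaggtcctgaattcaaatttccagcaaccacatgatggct
They hold 4 CpG dinucleotides. A neighbouring region, chr7:13005589-13008538, named after its values were seen, lies in an intron of the annotated Trim28 gene and overlaps Zbtb45. It is 1.59% repeat and held 12.03 and 11.4 CPM in B6, 15.6 and 18.6 in B6-13D2, 32.4 and 27.6 in D2-13B6, and 37.9 and 34.2 in D2. It was called between D2 and B6 (1.62 ± 0.15, edgeR adjusted p = 3.81e-12) and between B6-13D2 and B6 (0.52 ± 0.15, adjusted p = 0.0166, edgeR). The latter call was lost with edgeR without replicate 3 of B6 (0.52, adjusted p = 0.121) or replicate 2 of B6-13D2 (0.49, adjusted p = 0.172). The region nearest the annotated start, chr7:12997232-12998514, ends 600 bp upstream of it at Slc27a5 and differed by 1.53 (edgeR adjusted p = 1.15e-06).

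**Figure D3:**
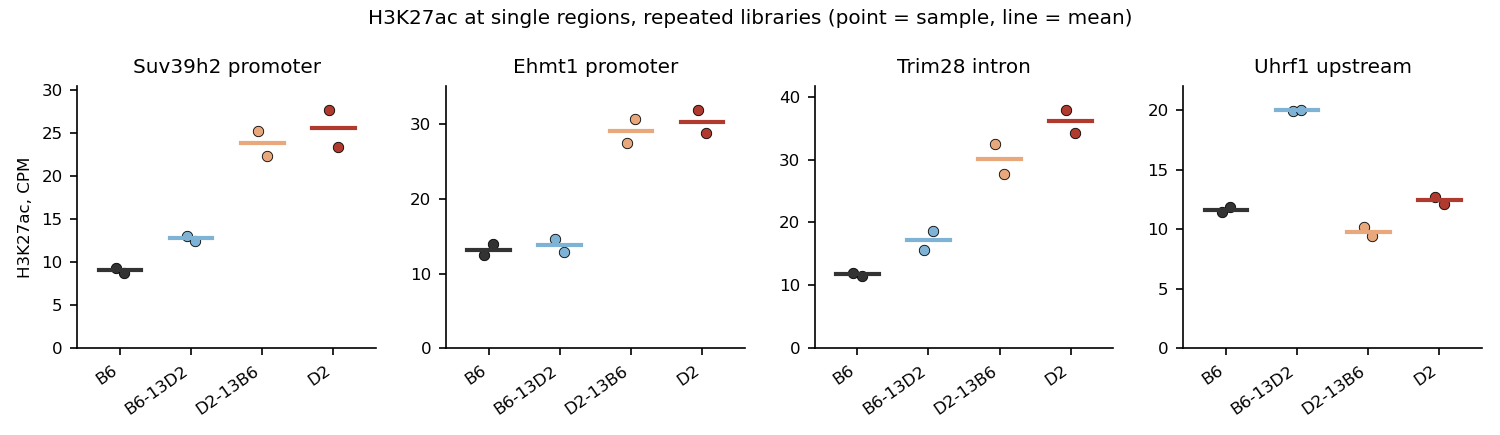
H3K27ac in CPM (y axis, separate scale per panel) at 4 single regions in the 4 lines of the repeats (x axis), with 1 point per sample (n = 2 per line) and a bar at the mean. The Suv39h2 and Ehmt1 promoters and the Trim28 intron are high in both D2-background lines, and the region upstream of Uhrf1 is high in B6-13D2 (19.97 and 20.03 CPM). The Trim28 intron panel is chr7:13005589-13008538, which overlaps Zbtb45, and not the repeat-rich region whose bases are shown.

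Cbx1 encodes HP1 beta and was the member whose summed window was called between the D2 and D2-13B6 lines. Summed H3K27ac over its window was 182 and 200.5 CPM in B6, 174 and 165 in B6-13D2, 255 and 299.9 in D2-13B6, and 176 and 162 in D2. The D2-13B6 samples were above all others, and D2 was 0.61-fold of D2-13B6 (log2 -0.71 ± 0.11, edgeR adjusted p = 6.6e-07). All 8 regions of the window were called lower in D2 than in D2-13B6, from -0.95 to -0.42, where 6.67% of all tested regions were called. With each chromosome scaled by its own reads, 3 member regions were called in this contrast in place of 10. B6-13D2 minus B6 was -0.17 (adjusted p = 0.274, edgeR), and the interaction, B6-13D2 minus B6 compared with D2 minus D2-13B6, was 0.54 ± 0.15 (edgeR adjusted p = 0.0104). The 3 D2 lines of the separate set held 267, 265 and 292 CPM and the 3 B6 lines 309, 286 and 297, overlapping groups with a difference of -0.11 ± 0.05 (edgeR adjusted p = 0.0693). In that set the value is 1 region of 49202 bp, chr11:96783385-96832586, which reaches past the window and also holds the Nfe2l1 start.

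Chromosome 11, which carries Cbx1, took a larger share of reads in D2-13B6. It took 9.15 to 9.47% of the H3K27ac reads in the D2-13B6 libraries, against 7.55 to 7.64% in D2, 7.57 to 7.61% in B6 and 7.14 to 7.19% in B6-13D2. Among the separate lines the H3K27ac share was 7.49 to 7.63% in B6 and 7.5, 7.74 and 8.47% in D2. Replicate 3 of D2 had the highest share, and the highest Cbx1 level of the 3 D2 lines (292 CPM). Replicates 1 and 3 of B6 held more at Cbx1 (309 and 297 CPM), with shares of 7.49 and 7.61%. For H3K9me3 the shares were 7.86 to 8.38% in D2-13B6 and 5.46 to 6.18% in the other lines of the repeats. Whether the copy number of chromosome 11 differs in these lines was not tested. The median D2 minus D2-13B6 difference over tested regions of chromosome 11 was -0.29 for H3K27ac and -0.49 for H3K9me3, where the medians of all regions were 0.00 and -0.01. In a fit that scaled each chromosome by its own reads, chosen after seeing the data, Cbx1 was still lower in D2 by -0.41 (edgeR adjusted p = 0.011), and the interaction was 0.35 and not called (edgeR adjusted p = 0.159). Without replicate 2 of D2 the interaction was 0.50 (edgeR adjusted p = 0.105).

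At the Cbx1 promoter region, chr11:96788730-96791189, H3K27ac was 52.2 and 56.5 CPM in B6, 51.4 and 46.8 in B6-13D2, 75.4 and 89.1 in D2-13B6, and 63.4 and 59.9 in D2. D2 minus D2-13B6 was -0.42 ± 0.12 (edgeR adjusted p = 0.0296), the smallest change of the 8. It was -0.12 (edgeR adjusted p = 0.741) with each chromosome scaled by its own reads, and it was not called without replicate 3 of B6 (-0.43, adjusted p = 0.0684), replicate 2 of B6-13D2 (-0.44, adjusted p = 0.118) or replicate 2 of D2 (-0.38, adjusted p = 0.359, edgeR). Other settings without the call were DESeq2 size factors in edgeR (adjusted p = 0.0632), no filter (0.0961) and DESeq2 (0.0818). The intronic region chr11:96794863-96797436, named after its values were seen, had the largest change, with 77.3 and 96.3 CPM in D2-13B6 against 47.4 and 42.6 in D2 and 53.5 and 59.9 in B6 (-0.95 ± 0.13, edgeR adjusted p = 4e-07). The bases from 250 before the RefSeq start of Cbx1 to the last before its GENCODE start, plus strand, chr11:96788885-96789126 of GRCm38.p6, are shown as the start of the gene whose window set D2-13B6 apart, with GGGCGG on either strand in capitals.
Cbx1: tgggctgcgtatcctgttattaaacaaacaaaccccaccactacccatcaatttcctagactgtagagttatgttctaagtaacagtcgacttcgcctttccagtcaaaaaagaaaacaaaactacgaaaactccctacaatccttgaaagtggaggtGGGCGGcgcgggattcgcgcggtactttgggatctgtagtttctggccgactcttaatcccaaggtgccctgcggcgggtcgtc
This stretch of 242 bases holds 14 CpG dinucleotides and 1 GC box.

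**Figure D4:**
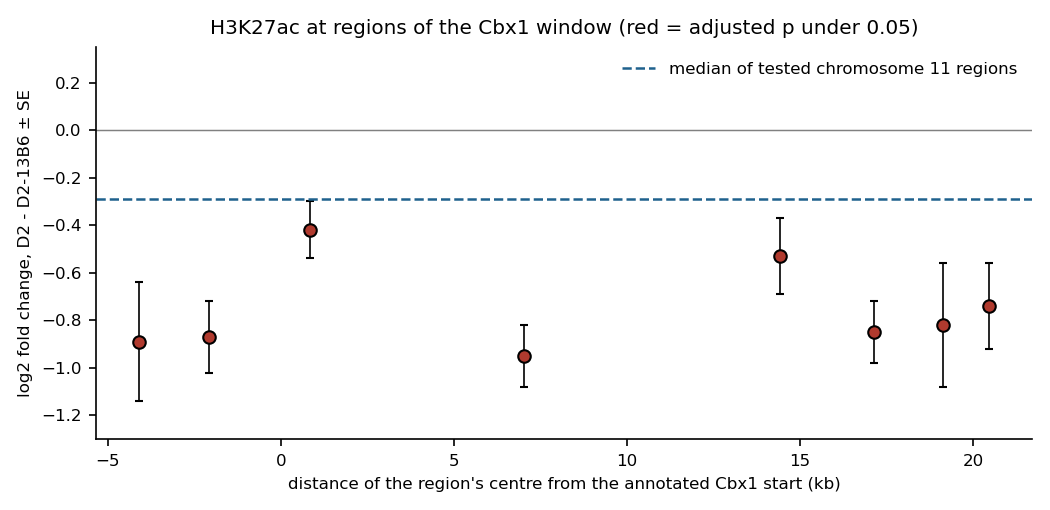
Log2 difference in H3K27ac between D2 and D2-13B6 (y axis, bars are standard errors) at the 8 regions of the Cbx1 window, placed by the distance of their centre from the annotated start in kb (x axis). All points lie below the dashed line at -0.29, the median of the tested regions of chromosome 11, and range from -0.95 to -0.42.

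Cbx3, which encodes HP1 gamma, gained H3K27ac in D2. Its window held 136, 120.2 and 133 CPM in the B6 lines and 145, 159 and 146 CPM in the D2 lines, without overlap (0.21 ± 0.06, edgeR adjusted p = 0.00408). In the repeats it held 76.4 and 81.7 CPM in B6, 84.0 and 74.9 in B6-13D2, 95.5 and 109.7 in D2-13B6, and 109.5 and 99.7 in D2. B6-13D2 overlapped B6, and D2 minus B6 was 0.41 ± 0.11 (edgeR adjusted p = 0.00117). The change lay at the promoter region chr6:51468373-51471529, which Cbx3 shares with the divergent gene Hnrnpa2b1 and which differed by 0.41 ± 0.12 (edgeR adjusted p = 0.011), or 0.40 (adjusted p = 0.0682, edgeR) without replicate 2 of B6-13D2. The reads cannot be assigned to one of the 2 genes.

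Cbx5, which encodes HP1 alpha, showed no called change over its window and opposite changes within it. Summed H3K27ac was 310.1, 266 and 298 CPM in the B6 lines and 289, 286 and 274 CPM in the D2 lines (-0.04 ± 0.06, edgeR adjusted p = 0.52), and in the repeats 196 and 233 CPM in B6, 219 and 212 in B6-13D2, 184 and 229 in D2-13B6, and 214 and 202 in D2 (-0.04, edgeR adjusted p = 0.784). The groups overlapped in both sets. Of its 13 regions, 4 intronic ones were called lower in the D2 line of the repeats, with D2 minus B6 from -1.18 to -0.62, and repeats covered 18.1 to 86.4% of them. The promoter region chr15:103239012-103242002, which also holds the Hnrnpa1 start, was at 73.1 and 85.4 CPM in B6 and 96.3 and 95.7 CPM in D2 and was not called (0.28, edgeR adjusted p = 0.0899). In the separate lines, the region over the promoter and gene was called lower in D2 (-0.18 ± 0.07, edgeR adjusted p = 0.0198) and the next region upstream higher (0.26, edgeR adjusted p = 0.00201). The former was lost with edgeR without replicate 1 (-0.12, adjusted p = 0.115) or 3 (-0.17, adjusted p = 0.0754) of B6 or replicate 3 of D2 (-0.13, adjusted p = 0.133), and with DESeq2 (-0.17, adjusted p = 0.0547).

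Daxx was the member whose window was called lower in H3K27ac in the D2 lines of the separate set. Its window held 244, 235 and 251 CPM in the B6 lines and 224, 221 and 228 CPM in the D2 lines, without overlap but by a small margin (-0.12 ± 0.05, edgeR adjusted p = 0.0381). Leaving out a line ended the call in 5 of the 6 cases, with edgeR adjusted p of 0.0682 and 0.161 without replicates 1 and 3 of B6 and of 0.0777, 0.13 and 0.0548 without replicates 1, 2 and 3 of D2. By region, the called fall lay in chr17:33885149-33912930 (-0.15 ± 0.06, edgeR adjusted p = 0.032), which begins outside the window. That region also holds the Kifc1 and Platr17 starts. The other region was at 0.02 and not called (edgeR adjusted p = 0.816). Summed regions covered 35807 bp in the separate lines and 11835 bp in the repeats. In the repeats the direction of the window mean was the other one, with 129.5 and 138 CPM in B6, 124 and 116 in B6-13D2, 169 and 181 in D2-13B6, and 167 and 145 in D2 (D2 minus B6 0.23 ± 0.11, edgeR adjusted p = 0.0731, not called). One of its 4 regions was called between D2 and D2-13B6, upstream of the gene at chr17:33903758-33904758, with 36.1 and 37.7 CPM in D2-13B6 and 28.3 and 27.1 in D2 (-0.41 ± 0.13, edgeR adjusted p = 0.0445). That call was lost with edgeR without replicate 3 of B6 (adjusted p = 0.101), replicate 2 of B6-13D2 (0.148), replicate 2 of D2 (0.354) or replicate 1 of D2-13B6 (0.0622), with DESeq2 size factors (0.0784), no filter (0.113) or scaling within chromosomes (0.0509), and with DESeq2 (0.126).

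Uhrf1 rose in D2 in both sets. Its window held 132, 127 and 137 CPM in the B6 lines and 159.5, 154 and 159 CPM in the D2 lines (0.26 ± 0.05, edgeR adjusted p = 0.000229), and 93.2 and 102 CPM in B6, 119 and 107 in B6-13D2, 129 and 115 in D2-13B6, and 141 and 130.1 in D2 in the repeats. The strains did not overlap in either set, and D2 was 1.39-fold above B6 in the repeats (log2 0.48 ± 0.11, edgeR adjusted p = 0.000164). At the promoter region chr17:56302242-56305387 the levels were 39.2 and 43.2 CPM in B6, 54.1 and 43.6 in B6-13D2, 61.9 and 58.1 in D2-13B6, and 63.6 and 56.9 in D2 (0.56 ± 0.13, edgeR adjusted p = 0.000869). A region upstream of the gene, chr17:56297801-56299310, followed another pattern. It held 11.4 and 11.9 CPM in B6, 19.97 and 20.03 in B6-13D2, 10.2 and 9.43 in D2-13B6, and 12.7 and 12.2 in D2. B6-13D2 was above every other line and differed from B6 by 0.78 ± 0.15 (edgeR adjusted p = 0.000155), the largest called change of a member region in this contrast, while D2 minus B6 was 0.11 (adjusted p = 0.675) and the interaction 0.43 (adjusted p = 0.285, edgeR).

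Across the 10 genes, the congenic lines gave few H3K27ac calls against the parental line of their background. For B6-13D2 minus B6, 0 of 10 windows were called with edgeR (1 at an unadjusted p under 0.05, 0 with DESeq2) where 20.3% of all genes were called, and 5 of 75 regions (3 higher, 2 lower) where 13% of all regions were. With library totals in place of TMM scaling the median of all regions moved from -0.06 to -0.19 and 13 member regions were called, 2 higher and 11 lower. These 5 calls fell at Trim28, Suv39h2 and Uhrf1 (higher) and at Cbx1 and Cbx5 (lower), and they numbered 1, the Uhrf1 region, without replicate 3 of B6 and without replicate 2 of B6-13D2. For D2 minus D2-13B6, 1 of 10 windows was called against 11.3% of all genes, and 10 of 75 regions (1 higher, 9 lower) against 6.67%. The 8 Cbx1 regions were among them, and the number was 3 with each chromosome scaled by its own reads, 5 without replicate 3 of B6, 5 without replicate 2 of B6-13D2 and 3 without replicate 2 of D2. The interaction called 1 of 10 windows against 12.5% of genes and 4 of 75 regions (3 at Cbx1, 1 at Ehmt1) against 5.3%, and without replicate 2 of D2 it called 0 windows and 0 regions (edgeR).

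Beyond the members, 31 other genes of H3K9 methylation, DNA methylation and histone H3.3 loading were counted in the same fits. In the separate lines H3K27ac was called at 16 of 31 (10 higher in D2, 6 lower) where 60.4% of all genes were called, and in the parental repeats at 20 (15 higher, 5 lower) where 49.6% were. Between B6-13D2 and B6 it was called at 4, which were Atrx, Cdyl, Dnmt3a and Dnmt3l, and between D2 and D2-13B6 at 4, all lower in D2, which were Dnmt3a, Hells, Pphln1 and Smarcad1, against 20.3% and 11.3% of all genes. The interaction was called at 2, Dnmt3l and Pphln1, against 12.5%. H3K9me3 was called at 4 of 27 tested genes in the separate lines, all lower in D2 (Kdm4c, Rif1, Smarcad1 and Wiz), against 15.8% of all genes, and in the repeats at 0 of 31 in each of 4 contrasts with edgeR, with 7 at an unadjusted p under 0.05 between the parental lines, 4 and 0 between the pairs sharing a D2 and a B6 background, and 1 in the interaction. DESeq2 was not run on this list.

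Among the members, Suv39h2 was followed across the genome for genes with a like pattern, since it was called in 2 H3K27ac contrasts and had the largest of the parental changes. Over the 12 repeated H3K27ac libraries and 19218 genes, the highest Pearson r of log2 CPM (with 1 CPM added) were with Stim1 (0.996), Klf10 (0.995) and 1190002N15Rik (0.993). The points are repeats of 4 lines and share libraries and scaling, so these values describe a likeness between lines.

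H3K9me3 at the members was low, and few of the 76 regions passed the filter on low counts. In the separate lines 7 regions were tested, and the mean level of the member regions had a median of 1.94 CPM against 3.22 CPM for all regions. Of the 7 tested regions, 3 were called (2 higher in D2, 1 lower, with 5 at an unadjusted p under 0.05) against 34.7% of all tested regions. Of the 2 higher calls, the Daxx promoter region passed the filter through the D2 group alone and had to differ, as given below. Of the 9 gene windows tested, 2 were called, Trim28 higher and Cbx3 lower in D2, against 15.8% of all genes. In the parental repeats 2 of 21 tested regions were called (1 higher, 1 lower) against 11.3%, and 1 of 10 windows, Cbx3, against 3.96%. Without replicate 1 of D2-13B6 the windows called numbered 3 (2 higher, 1 lower).

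An H3K9me3 difference downstream of Cbx3 was called in both sets, at chr6:51485226-51486521, which lies past the gene body within the 5 kb flank. It held 58.1, 53.3 and 58.5 CPM in the B6 lines and 32.9, 33.1 and 30.1 CPM in the D2 lines. All D2 lines were below all B6 lines (log2 -0.82 ± 0.19, edgeR adjusted p = 0.000625). In the repeats it held 36.3, 36.5 and 28.7 CPM in B6, 38.3 and 52.1 in B6-13D2, 13.5, 12.7 and 17.6 in D2-13B6, and 13.4 and 7.76 in D2. Both D2-background lines were below both B6-background lines, and D2 minus B6 was -1.69 ± 0.31 (edgeR adjusted p = 1.34e-05), called under each of 16 alternative settings with values from -2.19 to -1.36. The 300 bases at its centre are shown, plus strand, chr6:51485724-51486023 of GRCm38.p6 (RefSeq), with CG in capitals.
Cbx3 downstream: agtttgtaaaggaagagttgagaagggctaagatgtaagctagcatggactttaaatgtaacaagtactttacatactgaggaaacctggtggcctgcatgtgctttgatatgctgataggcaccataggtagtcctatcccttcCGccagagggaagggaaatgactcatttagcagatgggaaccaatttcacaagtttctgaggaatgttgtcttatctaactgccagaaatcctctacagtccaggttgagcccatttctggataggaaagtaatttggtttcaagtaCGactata
They hold 2 CpG dinucleotides, and repeats cover 26.6% of the region. Summed over the window, H3K9me3 at Cbx3 was 62.3, 54.4 and 62.6 CPM in the B6 lines and 43.6, 34.9 and 33.8 in the D2 lines (-0.68 ± 0.22, edgeR adjusted p = 0.0235). This window call was lost with edgeR without replicate 3 of B6 (-0.70, adjusted p = 0.0546), replicate 2 of D2 (-0.59, adjusted p = 0.158) or replicate 3 of D2 (-0.57, adjusted p = 0.0611), and with DESeq2 (-0.69, adjusted p = 0.0506). A fit with a replicate block (edgeR) did not make it either. In the repeats the window difference was -0.99 ± 0.27 (edgeR adjusted p = 0.0472), and without the 5 kb flanks it was 0.35 and not called (edgeR adjusted p = 0.668). With a replicate block in edgeR it was not called. It was also not called with edgeR without replicate 1 (adjusted p = 0.141), 2 (0.118) or 3 (0.0678) of B6, replicate 1 (0.118) or 2 (0.213) of D2, or replicate 2 (0.0599) or 3 (0.0562) of D2-13B6.

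At Trim28 H3K9me3 was called higher in D2 in the separate lines and not in the repeats, and at the Daxx promoter it was called higher in the repeats. The region over the RefSeq start of Trim28, chr7:13021951-13026864, held 15.9, 9.79 and 17.4 CPM in the B6 lines and 39.5, 37.4 and 38.3 CPM in the D2 lines (1.4 ± 0.25, edgeR adjusted p = 1.78e-05), the largest called change there. In the repeats it held 13.1, 23.6 and 18.4 CPM in B6, 28.1 and 17.6 in B6-13D2, 16.2, 22.4 and 17.6 in D2-13B6, and 19.7 and 24.8 in D2, overlapping values with no call (0.29 ± 0.29, edgeR adjusted p = 0.587). Summed over the window, Trim28 held 30.6, 42.4 and 60.5 CPM in the B6 lines and 77.3, 76.7 and 60.9 CPM in the D2 lines (0.68 ± 0.22, edgeR adjusted p = 0.0221). The B6 values varied widely, and with edgeR the call was lost without replicate 1 of B6 (0.45, adjusted p = 0.187), replicate 2 of B6 (0.61, adjusted p = 0.0921) or replicate 2 of D2 (0.67, adjusted p = 0.0754). At the Daxx promoter region, chr17:33908009-33912481, H3K9me3 was 4.23, 4.35 and 8.20 CPM in the B6 lines and 12.3, 15.6 and 10.5 CPM in the D2 lines (1.19 ± 0.39, edgeR adjusted p = 0.0159). The B6 libraries held 4 to 8 reads there and the D2 libraries 14 to 25, so the region passed the minimum count of 10 through the D2 group alone and had to differ. Leaving out replicate 1 of B6 (1.00, adjusted p = 0.09), replicate 2 of B6 (1.00, adjusted p = 0.0921) or replicate 2 of D2 (1.04, adjusted p = 0.108) ended that call (edgeR), and DESeq2 did not make it (adjusted p = 0.217).

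Among the repeats, the Daxx promoter region held 6.54, 11.4 and 10.3 CPM of H3K9me3 in B6, 11.6 and 12.2 in B6-13D2, 17.1, 14.9 and 24.6 in D2-13B6, and 21.5 and 21.7 in D2. Both D2-background lines were above both B6-background lines, and D2 minus B6 was 1.19 ± 0.33 (edgeR adjusted p = 0.00678). The adjusted p was 0.0687 without replicate 1 of B6, 0.0869 without replicate 1 of D2, 0.11 without replicate 2 of D2 and 0.0543 without the filter (edgeR), and 0.129 with DESeq2. The same region is an active promoter by H3K27ac, with 62.0 and 66.9 CPM in B6 and 83.2 and 70.7 CPM in D2 (0.27 ± 0.13, edgeR adjusted p = 0.115). The member region with the highest H3K9me3 per length in the separate lines, 35.04 CPM per kb averaged over all 6 of them, was an intron of Setdb1 at chr3:95343333-95344138, of which 69.6% is repeat. The Cbx3 region followed closely at 34.19 CPM per kb, and was the higher of the pair in the B6 lines alone. The Setdb1 intron held 41.2, 38.1 and 21.5 CPM in the B6 lines and 24.7, 23.7 and 20.3 CPM in the D2 lines, overlapping groups (-0.55 ± 0.24, edgeR adjusted p = 0.0732). In the repeats the Setdb1 intron held 17.4, 11.4 and 19.9 CPM in B6, 20.5 and 22.4 in B6-13D2, 8.99, 7.47 and 7.73 in D2-13B6, and 8.06 and 10.1 in D2 (D2 minus B6 -0.83 ± 0.36, edgeR adjusted p = 0.128).

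**Figure D5:**
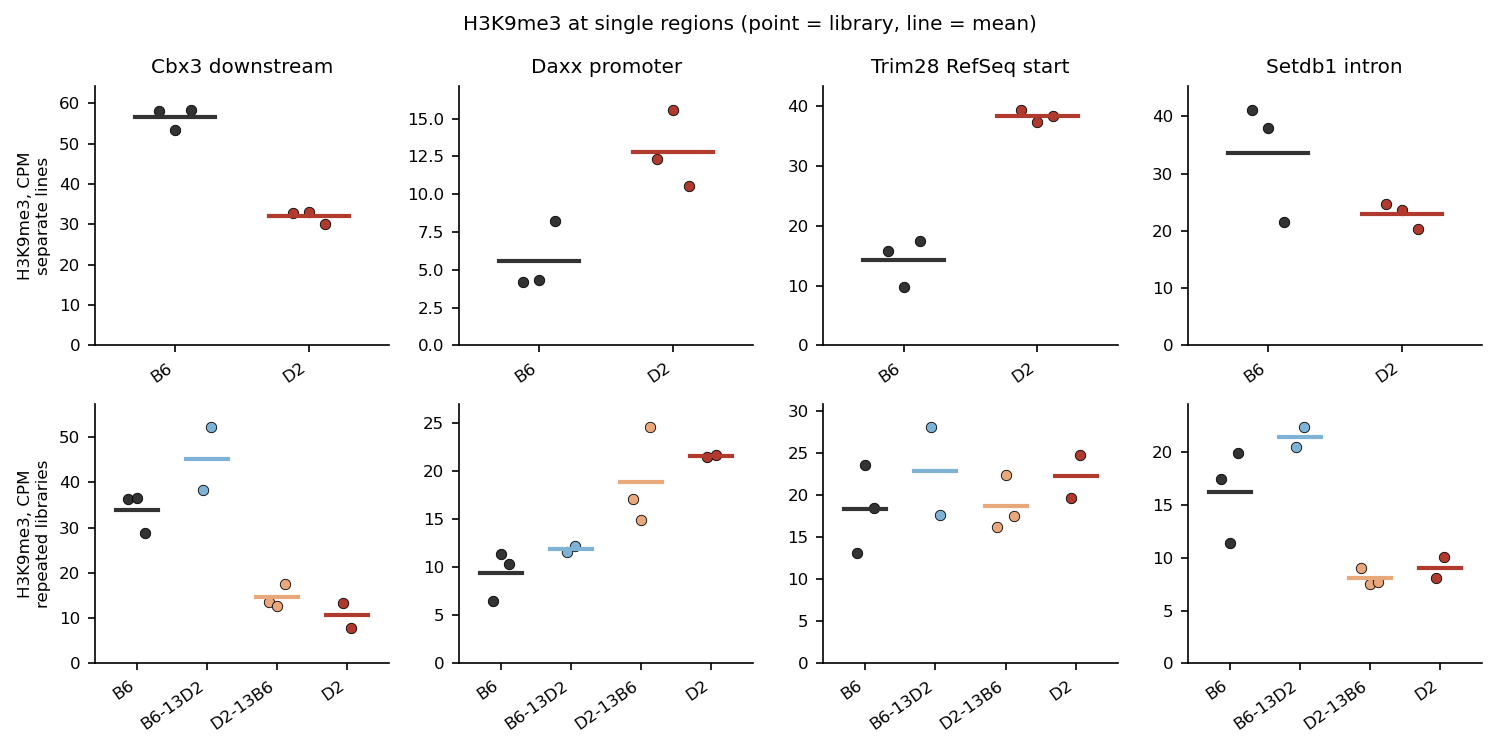
H3K9me3 in CPM (y axis, separate scale per panel) at 4 single regions, with the separate lines in the upper row and the repeats in the lower row, 1 point per library and a bar at the mean. Downstream of Cbx3 the D2 libraries lie below the B6 libraries in both rows, at the Daxx promoter they lie above, and at the Trim28 RefSeq start they lie above in the upper row and overlap in the lower. In the upper row the Daxx region passed the count filter through the D2 libraries alone and had to differ.

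H3K9me3 at the members gave no call between congenic and parental lines. With edgeR, B6-13D2 minus B6 gave 0 of 21 regions (2 at an unadjusted p under 0.05, 0 with DESeq2) where 1.69% of all regions were called, and 0 of 10 windows (0 unadjusted, 0 with DESeq2) where 0.16% of genes were. D2 minus D2-13B6 gave 0 of 21 regions (1 unadjusted, 0 with DESeq2) against 2.2%, and 0 of 10 windows (0 unadjusted, 0 with DESeq2) against 0.0588%. The interaction gave 0 of 21 regions (2 unadjusted, 0 with DESeq2) against 0.389%, and 0 of 10 windows (0 unadjusted, 0 with DESeq2) against 0.00535%. By summed window, replicate 1 of D2-13B6 was the lowest of its 3 repeats at 8 of the 10 genes, as at Trim28 with 43.2 CPM beside 94.9 and 92.7 CPM in replicates 2 and 3. At Setdb1 (32.4 beside 29.9 and 32.3 CPM) and Cbx3 (25.2 beside 21.7 and 28.1 CPM) it was not. Without it, 1 region was called lower in each background contrast, and without replicate 2 of B6 1 region in B6-13D2 minus B6.

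Cbx3 also has 8 annotated processed copies, 4 of them on chromosome 13, and how reads shared with such copies were counted is not given in the sources used here. One copy, on chromosome 13, overlapped a region of the shared list. It was called higher with D2 alleles in 4 of 4 pairwise contrasts of H3K9me3 and in the 3 of the repeats for H3K27ac, while the interaction was not called in either mark. For H3K9me3 it held at most 5 reads in a B6 library of the separate lines, 7 in a B6 repeat and 1 in a D2-13B6 repeat, so it passed the filter through the groups with D2 alleles alone, and these calls describe a region that had to differ. In the H3K27ac list of the separate lines 3 copies on chromosome 13 overlapped regions. Cbx3-ps2 (1.21, edgeR adjusted p = 4.4e-21) and Cbx3-ps5 (1.08, edgeR adjusted p = 1e-17) were called higher in D2. Cbx3-ps4 was not called (0.27, edgeR adjusted p = 0.318). The window of Cbx3 itself, on chromosome 6, was not called in the congenic contrasts of either mark.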

How the data were processed

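ChIP-seq of H3K9me3 and H3K27ac was analysed from the deposited tables of raw read counts per region, 4 tables with 34 libraries in 12 groups, and per the file headers duplicate reads had been removed. The submitters' processing notes name the genome build mm10 and the tools Trimmomatic 0.39, HISAT2 2.2.1, MACS 1.4.2, bedtools 2.9.2 and edgeR, without saying how reads matching several places were treated. Another 2 columns, whose names fit none of the samples, were set aside. Coordinates were read from region names, with 1 added to starts, because 2 starts of a table are rounded in its start column.

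Counts of all regions were tested with the edgeR 4.0.16 quasi-likelihood test in R 4.3.3, with TMM scaling and filterByExpr (minimum count 10, minimum total 15). The same test ran on the summed counts of all regions overlapping each protein-coding gene body plus 5 kb, each region counted whole (GenomicRanges 1.54.1). P-values were two-sided and adjusted by the Benjamini-Hochberg method over all regions or genes, and standard errors were derived from the F statistics. CPM are counts scaled to a common library size with TMM factors. The groups and repeats entered the fits as the labels give them, with 1 fit per mark over all 4 repeated lines. In the H3K27ac repeats, 4 pairs of libraries were summed because a chi-square test (regions of 40 or more counts) found them closer than sampling noise.

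All 10 members are named. Named regions are each member's promoter region (the highest within 1 kb of the annotated start), the largest called change per contrast and the highest level per kb, and others were chosen after their values were seen. Members, lists and rules were chosen with earlier results of these data known. Alternatives were library totals, DESeq2 size factors, the DESeq2 1.42.0 test, no filter, a replicate block, unsummed libraries, no flanks, leaving out each library and, added after the data were seen, scaling within chromosomes. The fits were also run on simulated counts, and the outcome is not given here. Sequences came from RefSeq (GRCm38.p6). Figures used Python 3.11.15 and matplotlib 3.10.9. Reads of D2 cells were aligned to a C57BL/6J reference, and its effect on levels was not tested.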

Additional observations from a re-analysis of the deposited data

Results flagged for a closer look

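Differences that were not the same in the 2 backgrounds, by the interaction test of edgeR on H3K27ac, occurred at Cbx1 and Ehmt1. The interaction is B6-13D2 minus B6 compared with D2 minus D2-13B6, on the log2 scale. For the summed Cbx1 window it was 0.54 (edgeR adjusted p = 0.0104), with 0.50 (adjusted p = 0.105) without replicate 2 of D2 and 0.35 (adjusted p = 0.159) with each chromosome scaled by its own reads. By region, the value was 0.75 at chr11:96786635-96787481 (adjusted p = 0.0293), 0.83 at chr11:96794863-96797436 (adjusted p = 0.00302) and 0.77 at chr11:96805437-96807090 (adjusted p = 0.00756), all by edgeR. None of these was called without replicate 2 of D2 (0 member regions by edgeR), where the second was 0.78 (adjusted p = 0.0712), and with each chromosome scaled by its own reads 2 member regions were called in place of 4, with the second at 0.64 (edgeR adjusted p = 0.039). The median interaction over tested regions of chromosome 11 was 0.20, against -0.02 for all regions. At the Ehmt1 intron chr2:24888681-24889338 the interaction was -1.65 (edgeR adjusted p = 0.0282), with D2-13B6 at 5 and 21 reads. It was not called by edgeR without replicate 1 of B6 (-1.40, adjusted p = 0.0939), replicate 2 of B6-13D2 (-1.58, adjusted p = 0.074), replicate 1 of D2 (-1.59, adjusted p = 0.0559) or replicate 2 of D2 (-1.53, adjusted p = 0.135).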

How the results depend on the processing

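Among values of named windows and regions, the direction changed in 1 case, H3K9me3 over Cbx3 in the parental repeats without the 5 kb flanks (0.35). For H3K9me3, the members called were 1 window with DESeq2 and 1 with the replicate block in the separate lines (main count 2), 1 region without the filter, 1 with DESeq2 and 1 without flanks in the parental repeats (main count 2), and 0 windows there with the replicate block (main count 1). For H3K27ac in B6-13D2 minus B6 (5 regions, 0 windows), library totals gave 13 and 2, DESeq2 2 regions, the replicate block 13 and 4, and unsummed libraries 14 and 4. In D2 minus D2-13B6 (10 regions, 1 window), no filter gave 5 regions, DESeq2 3, the replicate block 18 with 4 windows, unsummed libraries 18 with 4, no flanks 6, library totals 2 windows, and scaling within chromosomes, chosen after seeing the data, 3 regions. The interaction (4 regions, 1 window) gave 7 regions and 2 windows with library totals, 2 regions with DESeq2, 7 with the replicate block, 7 with unsummed libraries, and 2 regions and 0 windows with scaling within chromosomes. Unsummed libraries count near-duplicates as replicates, and the block fit does too. The cause of the other shifts was not tested. Leaving out each library in turn gave, for regions and windows, 2 to 4 and 0 to 3 in the H3K9me3 separate lines, 14 to 18 and 5 to 7 in the H3K27ac separate lines, 1 to 3 and 0 to 3 in the H3K9me3 parental repeats, 17 to 30 and 5 to 7 in the H3K27ac parental repeats (17 without replicate 3 of B6), 1 to 7 and 0 to 0 in H3K27ac B6-13D2 minus B6, 3 to 12 and 1 to 1 in H3K27ac D2 minus D2-13B6, and 0 to 5 and 0 to 1 in the H3K27ac interaction. For H3K9me3 they were 0 to 1 regions in each congenic contrast and 0 in the interaction, with 0 windows. A sample left alone in its group is assumed to vary like the others. Replicate numbers do not pair the samples: deviations of same-numbered libraries correlated by -0.06 to 0.16 over the 4 tables, and 1 of 13 pairs in the H3K9me3 repeats exceeded 0.1. All other counts stayed within 1.5 times the main count. H3K9me3 depth limits what could be tested, 7 and 21 of 76 regions in the separate lines and repeats.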
